A study of Saccharomyces cerevisiae with 42 samples.

Results

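Budding yeast turns ethanol and acetaldehyde into acetate and acetyl-CoA with a small set of enzymes, and 8 of their genes were followed: the aldehyde dehydrogenases ALD2, ALD3, ALD4, ALD5 and ALD6, the acetyl-CoA synthetases ACS1 and ACS2, and the alcohol dehydrogenase ADH2. They were taken by gene identifier, as a set of enzymes chosen with earlier results of these data known, and are 8 of the 6106 genes in a table of RNA-seq levels. All 8 were measured and tested. The table covers 42 libraries of MATa BY4741 cells made prototrophic with the plasmid pHLUM, 3 libraries in each of 14 groups. A saturated overnight culture was diluted to an A600 of 0.15 in 200 ml of fresh glucose medium (SDC) at 30°C, and cells were taken at the start (0 h) and every hour up to 6 h. Treated flasks held 700 ng/ml myriocin (Myr) in 0.3% ethanol, and vehicle flasks held 0.3% ethanol alone, so the ethanol that these enzymes use was added to both. Myr blocks serine palmitoyltransferase, which starts sphingolipid synthesis. Levels are in TPM (transcripts per 1000000), which corrects for gene length, so levels of different genes can be set side by side.

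In fermenting yeast, pyruvate decarboxylase makes acetaldehyde, most of which is reduced to ethanol, while aldehyde dehydrogenases oxidise a part to acetate and acetyl-CoA synthetases join the acetate to coenzyme A for lipid synthesis and protein acetylation. When glucose runs out, Adh2 turns ethanol back into acetaldehyde and the same route then feeds respiration and the glyoxylate cycle. Ald6 is the main cytosolic enzyme and makes NADPH, Ald4 and Ald5 are mitochondrial, and Ald2 and Ald3 are cytosolic enzymes known for oxidising 3-aminopropanal to beta-alanine, a building block of coenzyme A. ACS1, ALD4 and ADH2 are textbook examples of genes shut off by glucose, whereas Acs2 serves cells growing on glucose.

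Every column of the table added up to 1000000 TPM, read counts are not in the table, and the depth of each library is unknown. Libraries of a group had a Pearson r of 0.975 to 0.995 with each other over genes, and p-values measure the spread between libraries, which may in part be technical. Per the labels the hours of a replicate were taken from the same flask, and the tests below treat them as independent libraries, since the columns carry a letter but no replicate number. With that letter as a random effect, 149 of the members' calls were the same, 3 were gained and 0 were lost. The a-cell markers summed to 8371 to 19349 TPM in Myr libraries and 7007 to 20660 TPM in vehicle libraries, and the alpha-cell markers to 22.2 to 95.1 TPM in Myr libraries and 16.3 to 72.7 TPM in vehicle libraries. In 4 vehicle libraries, 2 at 3 h, 1 at 4 h and 1 at 5 h, the ribosomal protein gene RPL41A took more than 70000 TPM. Differences without these libraries are given for ALD6 at 3 to 5 h and for ALD2, ALD3 and ALD5 at 3 h. For other results that rest on them, only counts without them are given, in the closing section. On log2(TPM + 1) the median gene was 0.01, 0.20, 0.27, 0.14, 0.31 and 0.15 higher with Myr in the 6 hours in turn, so each difference below is best read against that shift. In such bulk samples, fewer cells that express a gene and less of its RNA per cell cannot be told apart.

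The coding sequences lie at chrXVI:432588-434090 (ALD6), chrXV:1039840-1041399 (ALD4), chrV:304030-305592 (ALD5), chrXIII:599352-600872 (ALD3), chrXIII:601562-603082 (ALD2), chrI:42881-45022 (ACS1), chrXII:445524-447575 (ACS2) and chrXIII:873291-874337 (ADH2) of R64. ALD2 and ALD3 are neighbours, and reads from the stretches they share could be assigned to either. Both coding sequences are 1521 bases long and lack introns, as do all 8 in the annotation. They are 91.8% identical, their first 329 coding bases are the same, and 40.4% of all 50-base windows of one occur unchanged in the other. By comparison, other pairs among the 5 aldehyde dehydrogenases share 57.7% to 65.2% of their aligned bases and no such window. The windows are shorter than the reads as sequenced, which came from both ends of each fragment, so their share is not the share of reads that match both genes. The stretch below, coding bases 336 to 425, is the 90-base window in which the 2 genes differ most, and it is shown because reads from such stretches are what separates them. Capitals mark the 28 differing bases in the R64 genome, chrXIII:602658-602747 for ALD2 and chrXIII:600448-600537 for ALD3, both on the minus strand.
ALD2 coding: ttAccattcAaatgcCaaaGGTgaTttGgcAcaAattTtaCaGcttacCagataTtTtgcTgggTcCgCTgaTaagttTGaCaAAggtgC
ALD3 coding: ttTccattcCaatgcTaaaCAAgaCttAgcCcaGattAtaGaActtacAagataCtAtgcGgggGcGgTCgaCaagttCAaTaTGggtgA

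The 300 bases before the start codon are shown for the 4 genes on which the time courses turn. ALD3, ALD4 and ALD6 had the largest Myr differences, and ADH2 is the textbook target of the regulator Adr1. Positions in R64 are chrXIII:600873-601172 (ALD3, minus strand), chrXV:1039540-1039839 (ALD4, plus strand), chrXVI:432288-432587 (ALD6, plus strand) and chrXIII:874338-874637 (ADH2, minus strand). Capitals mark matches, on either strand, to AGGGG, the core of the stress element bound by Msn2 and Msn4, to TTGGAG, the core bound by the ethanol regulator Adr1, and to CCAAT, the box of the respiratory Hap complex.
ALD3 promoter: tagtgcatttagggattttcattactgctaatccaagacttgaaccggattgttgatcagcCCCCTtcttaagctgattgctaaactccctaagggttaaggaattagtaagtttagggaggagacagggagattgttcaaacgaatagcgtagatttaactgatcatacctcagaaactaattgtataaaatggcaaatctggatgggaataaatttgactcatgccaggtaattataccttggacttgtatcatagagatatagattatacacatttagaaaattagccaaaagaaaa
ALD4 promoter: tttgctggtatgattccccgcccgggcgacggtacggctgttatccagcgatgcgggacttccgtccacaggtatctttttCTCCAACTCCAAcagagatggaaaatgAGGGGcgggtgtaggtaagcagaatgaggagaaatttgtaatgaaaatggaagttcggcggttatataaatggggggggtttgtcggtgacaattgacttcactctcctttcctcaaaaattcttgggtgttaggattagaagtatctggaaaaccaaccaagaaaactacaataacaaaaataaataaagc
ALD6 promoter: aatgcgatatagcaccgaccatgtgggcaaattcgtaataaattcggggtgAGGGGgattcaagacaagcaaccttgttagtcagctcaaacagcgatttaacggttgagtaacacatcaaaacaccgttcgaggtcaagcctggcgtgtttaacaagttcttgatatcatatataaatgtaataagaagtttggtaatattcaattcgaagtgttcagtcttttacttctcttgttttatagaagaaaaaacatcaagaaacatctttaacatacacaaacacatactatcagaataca
ADH2 promoter: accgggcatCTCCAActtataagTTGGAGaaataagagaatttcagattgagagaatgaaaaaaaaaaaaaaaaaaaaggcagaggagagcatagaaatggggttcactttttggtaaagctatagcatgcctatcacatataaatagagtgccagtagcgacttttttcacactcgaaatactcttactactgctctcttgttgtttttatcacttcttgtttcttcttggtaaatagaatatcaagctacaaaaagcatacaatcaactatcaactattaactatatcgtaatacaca
AGGGG occurred once in the windows of ALD3, ALD4, ALD5 and ALD6, whereas 22.2% of 6007 windows of the same length held a match. TTGGAG occurred at 2 places in ADH2 and 2 adjoining places in ALD4, whereas 10.4% of windows held at least 1 match, and CCAAT at 2 places in ALD2 and 1 in ACS1, whereas 41.8% held a match. The carbon source response element of Cat8 and Sip4 was not found in any of the 8 windows and was found in 1.4% of all. These are matches of letters, not shown to be bound.

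ALD6 carried most of the aldehyde dehydrogenase mRNA and was the gene on which the treatments differed most in absolute level. In vehicle it dropped after the first hour and stayed low until 5 h, while with Myr its level was higher again at 3 h and 5 h. At 5 h it had 962, 1122 and 1068 TPM in Myr libraries, against 267, 279 and 298 TPM in vehicle libraries. No libraries overlapped, and the ratio of the means was 3.74. On log2(TPM + 1) the difference was 1.90 ± 0.10 (SE, adjusted p = 2.4e-15, limma), and 1.57 after median centring, which sets the middle gene of all libraries to one level. At 3 h ALD6 had 606, 532 and 565 TPM with Myr, against 198, 194 and 234 TPM in vehicle, a difference of 1.44 ± 0.10 (adjusted p = 5.4e-11). At 4 h it had 525, 448 and 530 TPM with Myr, against 181, 262 and 238 TPM in vehicle (difference 1.15 ± 0.10, adjusted p = 3.0e-09). The groups did not overlap at either hour. Without the RPL41A-rich libraries the differences were 1.27, 1.00 and 1.86 at 3, 4 and 5 h. Those at 4 and 5 h were still past the threshold, while at 3 h vehicle was left with 1 library. The gap was narrower at 2 h (332, 344 and 322 TPM with Myr, against 232, 241 and 259 TPM in vehicle, difference 0.45, adjusted p = 0.00939) and at 6 h (821, 761 and 821 TPM, against 480, 567 and 537 TPM, difference 0.60, adjusted p = 5.8e-05). At 1 h the order was turned round, with 1164, 1056 and 969 TPM with Myr against 1171, 1234 and 1292 TPM in vehicle, groups that just failed to overlap, yet this difference of -0.22 did not pass the test (adjusted p = 0.315) except after median centring (-0.20, adjusted p = 0.0383), and it had the other sign when libraries were scaled to the RNA spike-ins added by the authors (0.15).

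**Figure D1:**
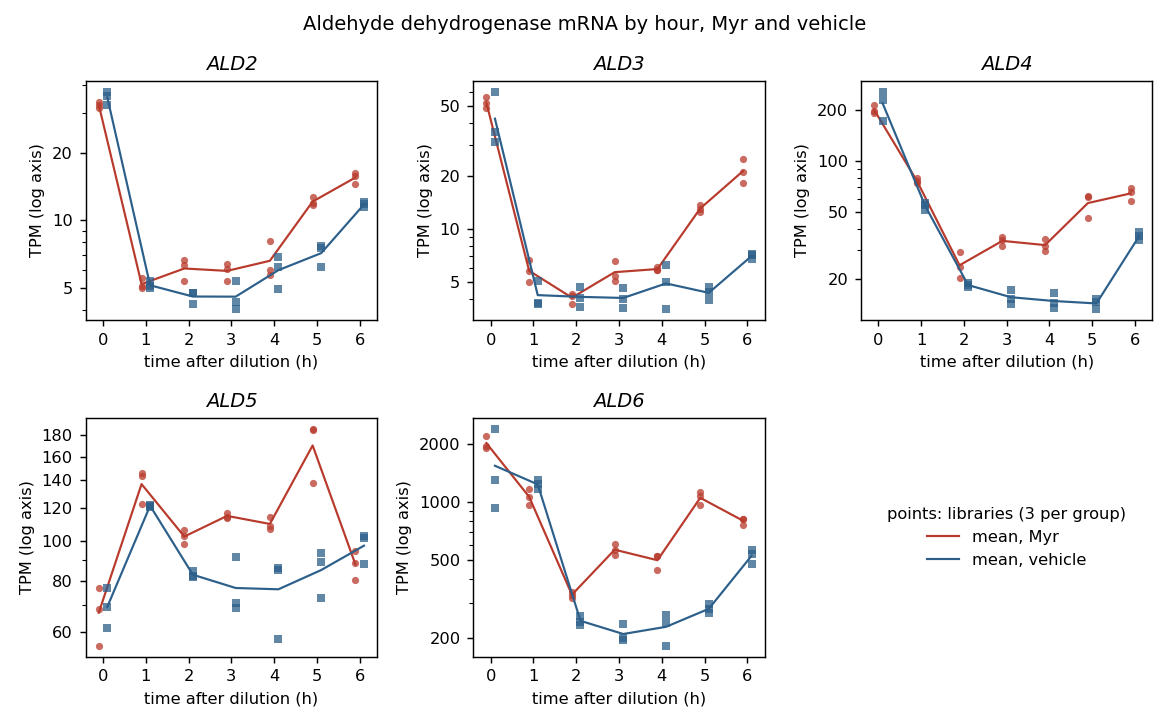
TPM (log axis) of the 5 aldehyde dehydrogenase genes against hours after dilution, with a point for each library (Myr circles, vehicle squares) and lines through the means of 3. From 3 to 5 h the Myr libraries of ALD4, ALD5 and ALD6 lie above all vehicle libraries, and ALD3 separates at 5 and 6 h.

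ALD4, the mitochondrial potassium-activated enzyme, had the most lasting difference and was the only one of the 8 genes whose Myr libraries all lay above the vehicle libraries at every hour from 1 to 6 h. The share of all genes with libraries apart in this way is not given, so the separation is not read as particular to ALD4. At 5 h ALD4 had 46.4, 61.2 and 61.9 TPM with Myr, against 13.3, 14.7 and 15.3 TPM in vehicle, a ratio of means of 3.92 and a difference of 1.89 ± 0.11 (adjusted p = 7.7e-15). At 3 h it had 31.5, 35.9 and 34.1 TPM with Myr, against 15.4, 14.4 and 17.3 TPM in vehicle (1.06 ± 0.11, adjusted p = 7.3e-08). At 4 h it had 29.6, 34.6 and 31.6 TPM with Myr, against 13.6, 14.5 and 16.6 TPM in vehicle (1.05 ± 0.11, adjusted p = 4.6e-08). ALD4 thus kept to about the same gap at 3 and 4 h and widened it at 5 h. In vehicle the level at 6 h was 2.50 times that at 5 h, a step not tested, and the gap at 6 h was then 0.82 ± 0.11 (58.2, 65.4 and 69.8 TPM, against 34.2, 38.0 and 35.9 TPM, adjusted p = 1.2e-06). It was also the single gene of the 8 called higher at 1 h, by 0.49 ± 0.11 (76.1, 80.0 and 74.0 TPM, against 56.4, 51.2 and 55.1 TPM, adjusted p = 0.00358). The call at 2 h (0.36, adjusted p = 0.0289) was lost after median centring and when any 1 of 4 libraries was left out: vehicle 2 h C or D, or Myr 2 h A or B (highest adjusted p = 0.148 over all libraries left out in turn).

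ALD5, the other mitochondrial enzyme, differed from the other ALD genes in 2 ways: its level was lowest in the saturated culture, and at 6 h its Myr and vehicle libraries overlapped. It had 138, 185 and 187 TPM with Myr at 5 h, against 72.8, 88.6 and 93.3 TPM in vehicle, a ratio of 2.00 (0.99 ± 0.13, adjusted p = 1.8e-07). At 3 h it had 116, 114 and 114 TPM with Myr, against 70.5, 68.7 and 91.3 TPM in vehicle (0.59 ± 0.13, adjusted p = 0.00327). Without the RPL41A-rich libraries, which leaves vehicle with 1 library at 3 h whose spread was assumed to be that of the other groups, the 3 h difference was 0.33 (adjusted p = 0.259). At 4 h it had 107, 109 and 114 TPM with Myr, against 57.7, 85.0 and 86.1 TPM in vehicle (0.54 ± 0.13, adjusted p = 0.00657), and this call was lost without vehicle 4 h library B, the lowest (0.36, adjusted p = 0.108). At 6 h the Myr libraries held 88.2, 80.5 and 94.2 TPM, against 87.7, 103 and 101 TPM in vehicle. That 6 h difference of -0.15 did not pass the test (adjusted p = 0.42), but after median centring ALD5 was lower with Myr by 0.29 (adjusted p = 0.00355).

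ALD3 and ALD2, the stress-induced pair, were the scarcest of the aldehyde dehydrogenases and differed late. ALD3 had 12.4, 13.7 and 13.0 TPM with Myr at 5 h, against 3.96, 4.35 and 4.67 TPM in vehicle, a ratio of means of 3.01 (1.40 ± 0.14, adjusted p = 1.2e-09). At 6 h it had 18.1, 20.8 and 24.8 TPM with Myr, against 6.72, 7.05 and 7.22 TPM in vehicle (1.46 ± 0.14, adjusted p = 1.3e-09). The ALD3 ratio at 6 h, 3.03, was the largest of the 8 genes at that hour. ALD2 had 11.7, 12.8 and 11.9 TPM with Myr at 5 h, against 6.19, 7.74 and 7.56 TPM in vehicle (0.69 ± 0.11, adjusted p = 1.3e-05). At 6 h ALD2 had 16.2, 15.7 and 14.6 TPM with Myr, against 11.4, 11.8 and 12.1 TPM in vehicle (0.37 ± 0.11, adjusted p = 0.0179), a call lost without Myr 6 h A or B or vehicle 6 h A (highest adjusted p = 0.0758). All of these libraries were apart, but values of genes this low are understated on log2(TPM + 1).

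Because reads may be shared, the sum of ALD2 and ALD3 was tested as 1 feature. It was 25.2 ± 1.21 TPM with Myr and 11.5 ± 1.17 TPM in vehicle at 5 h (SD, n = 3 each), a difference of 1.07 ± 0.11 (SE, adjusted p = 3.7e-09), and 36.8 ± 2.52 TPM with Myr and 18.8 ± 0.581 TPM in vehicle at 6 h, a difference of 0.93 ± 0.11 (adjusted p = 1.7e-07). ALD3 made up 57.6% of the sum with Myr and 37.3% in vehicle at 6 h. At 3 h the sum was also higher, at 11.6 ± 0.429 TPM with Myr and 8.64 ± 1.15 TPM in vehicle, with the libraries apart (0.40 ± 0.11, adjusted p = 0.0165), and at 1, 2 and 4 h its libraries overlapped and it was not called. By itself, ALD2 was called higher at 2 h (0.34, adjusted p = 0.0385) and 3 h (0.32, adjusted p = 0.0312) and ALD3 at 3 h (0.40, adjusted p = 0.0282). All 3 of these calls were lost after median centring. Each was also lost without any 1 of 4 or 5 libraries: for ALD2 at 2 h any of that hour but Myr B (highest adjusted p = 0.147), for ALD2 at 3 h any of that hour but vehicle D (0.153), and for ALD3 at 3 h any but vehicle D and Myr C (0.145). Both 3 h calls were lost without the RPL41A-rich libraries (0.13, adjusted p = 0.757, for ALD2 and 0.25, adjusted p = 0.63, for ALD3), and the sum was not tested without them.

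The acetyl-CoA synthetases differed by 0.38 or less at every hour of growth on TPM as deposited. ACS2, the form used during growth on glucose, had 115, 112 and 117 TPM with Myr at 5 h, against 77.8, 102 and 102 TPM in vehicle. The groups were apart, but the difference of 0.30 ± 0.14 did not pass the test (adjusted p = 0.0756) and lay close to the median of all genes, 0.31, and it was -0.03 after median centring. Its difference was between 0.07 and 0.33 at the other hours and passed at none of the 6. Its mean difference over the 6 hours did pass, at 0.24 (adjusted p = 7.5e-04), but was 0.06 after median centring (adjusted p = 0.0732). ACS1, the glucose-repressed form, had 4.74, 5.50 and 5.55 TPM with Myr at 5 h, against 3.87, 4.28 and 3.33 TPM in vehicle (0.38 ± 0.14, adjusted p = 0.021). That call was lost after median centring (0.11, adjusted p = 0.593) and without Myr 5 h B or C or vehicle 5 h A or C (highest adjusted p = 0.0899), and at the other 5 hours of growth ACS1 libraries overlapped.

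ADH2, which returns ethanol to acetaldehyde, was lower at 6 h than at 1 h, by 0.73 with Myr (adjusted p = 0.00735) and 1.11 in vehicle (adjusted p = 1.3e-04). It was called higher with Myr at 6 h alone, with 20.7, 23.2 and 16.7 TPM against 15.6, 15.1 and 12.3 TPM in vehicle (0.46 ± 0.11, adjusted p = 0.00346, and 0.33 after median centring, adjusted p = 0.0116). Its differences at 1 to 5 h were 0.09, 0.30, 0.23, 0.31 and 0.17. The libraries were apart at 2, 4 and 5 h as well, although those differences did not pass the test. ADH2 is 88.8% identical to ADH1, the fermentative enzyme, and 140 of its 998 windows of 50 bases also occur there, so some reads may be shared. Reads as sequenced were longer than these windows, so the share of windows is not a share of reads.

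**Figure D2:**
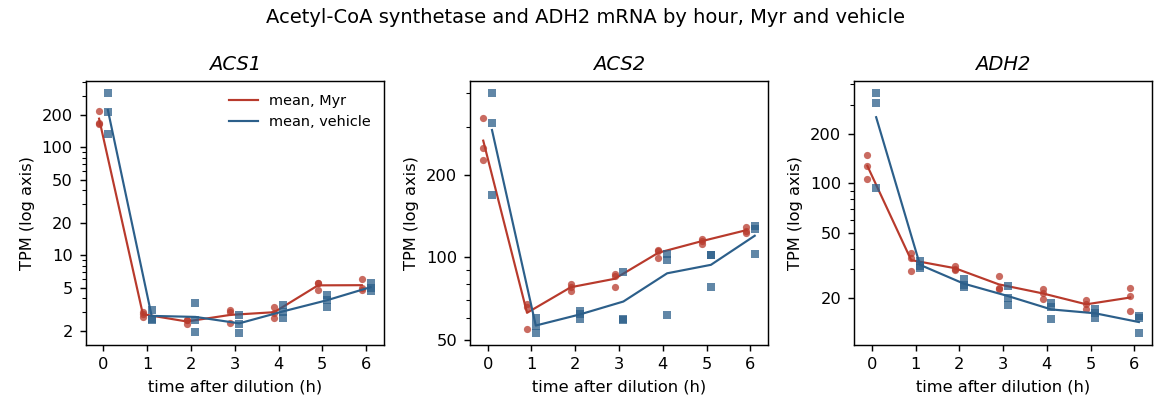
TPM (log axis) of ACS1, ACS2 and ADH2 against hours after dilution, with a point for each library (Myr circles, vehicle squares) and lines through the means of 3. For all 3 genes each library at 0 h lies above each later one, and from 1 h on the differences between the 2 treatments are at most 0.46 on log2(TPM + 1).

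Counted over the 8 genes, 1 was higher and 0 lower with Myr at 1 h, where 2.42% of all 5983 genes were higher and 3.01% lower. The count was 3 higher and 0 lower at 2 h (background 16.0% and 2.49%), 5 and 0 at 3 h (background 39.4% and 2.62%), 3 and 0 at 4 h (background 6.12% and 0.953%), 6 and 0 at 5 h (background 52.2% and 3.99%) and 5 and 0 at 6 h (background 19.6% and 3.43%). The share at 3 and 5 h, hours at which much of the genome was called, lies nearer to the background than that at 4 and 6 h. After median centring, 2 genes were higher at 1 h (ALD3 and ALD4, background 8.22%), 1 at 2 h (ALD6, background 9.83%), 3 at 3 h (ALD4, ALD5 and ALD6, background 4.90%), the same 3 at 4 h (background 5.67%), the 5 ALD genes at 5 h (background 23.2%) and 5 at 6 h (background 17.5%). ALD6 was then lower at 1 h (background 4.95%) and ALD5 at 6 h (background 11.4%), and none at 2, 3, 4 and 5 h (background 9.03%, 4.66%, 3.93% and 21.3%). For the mean difference over all 6 hours, tested at an unadjusted p of 0.01 or less, 7 genes were higher and 0 lower (background 64.5% and 5.65%), the exception being ACS1 (0.09, adjusted p = 0.121). After median centring it was the 5 ALD genes (background 25.1% higher and 19.5% lower). The median member differed by 0.84 at 5 h and 0.42 at 6 h, against 0.31 and 0.15 for all genes tested.

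**Figure D3:**
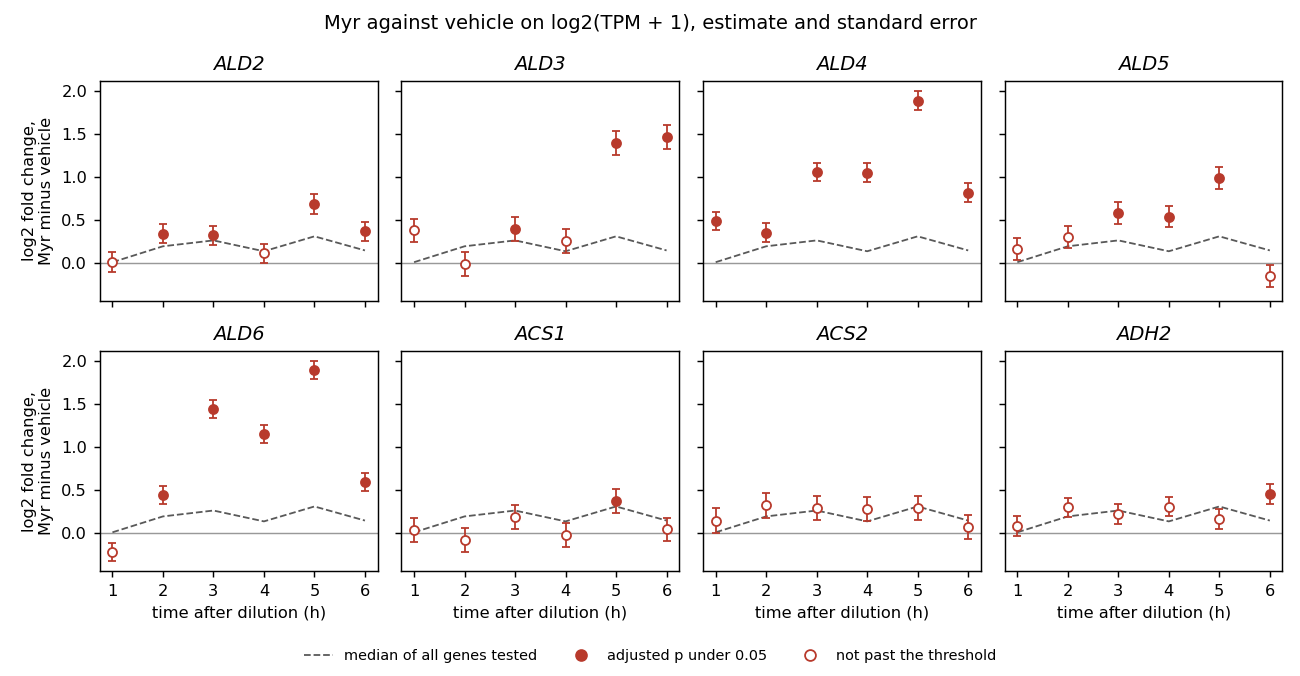
Difference between Myr and vehicle on log2(TPM + 1) at 1 to 6 h for each of the 8 genes, with its standard error as bars and filled points where the adjusted p is under 0.05. ALD4 and ALD6 stand highest above the dashed median of all 5983 genes from 3 to 5 h, reaching 1.89 and 1.90 at 5 h. ACS1, ACS2 and ADH2 stay near it over these hours, and ADH2 stands above it at 6 h.

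Whether the Myr difference varied with the hour was tested as an interaction over 1 to 6 h. At an unadjusted p of 0.01 or less it passed for 5 of the 8 genes, the aldehyde dehydrogenases (background 22.6%). The adjusted p was 9.5e-12 for ALD6, 4.6e-08 for ALD4, 2.9e-07 for ALD3, 2.2e-04 for ALD5 and 0.0268 for ALD2. ALD2 alone did not pass after median centring. It did not pass for ACS1 (adjusted p = 0.373), ACS2 (adjusted p = 0.812) or ADH2 (adjusted p = 0.427). The time term passed for all 8 genes (background 86.5%).

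For 4 of the 8 genes the treatments took different steps between 4 and 5 h on TPM as deposited. With Myr, 6 of the 8 genes were higher at 5 h than at 4 h and 0 lower (background 31.6% and 4.76%): ALD6 by 1.07 ± 0.17, ALD3 by 1.02 ± 0.16, ALD2 by 0.80 ± 0.11, ALD4 by 0.80 ± 0.12, ACS1 by 0.66 ± 0.18 and ALD5 by 0.61 ± 0.13. In vehicle 0 of 8 were higher or lower over the same hour (background 1.24% higher and 0.552% lower). By limma, 0 of the 8 had an unadjusted p under 0.05 there, the nearest being ALD2 (0.22, adjusted p = 0.431). The difference between the 2 steps passed the test for 4 genes, all with the greater change with Myr (background 11.4%, and 0.685% the other way): ALD3 (1.14 ± 0.23, adjusted p = 5.9e-04), ALD4 (0.84 ± 0.17, adjusted p = 6.5e-04), ALD6 (0.75 ± 0.24, adjusted p = 0.0391) and ALD2 (0.58 ± 0.15, adjusted p = 0.01). ALD6 lost this call after median centring (0.57, adjusted p = 0.0547) and without any 1 of 7 libraries (vehicle 4 h C or D, vehicle 5 h A or B, Myr 4 h B, Myr 5 h B or C, highest adjusted p = 0.148), and ALD2 lost it without vehicle 4 h D or Myr 4 h B (highest adjusted p = 0.0505). When libraries were instead scaled to their spike-in RNAs, 1 of the 6 steps with Myr still passed, that of ALD3 (0.74, adjusted p = 0.04), and 0 of the 4 differences did. From 5 to 6 h the vehicle means rose as well, by ratios of 2.50 (ALD4), 1.88 (ALD6), 1.64 (ALD2) and 1.62 (ALD3). With Myr the ratios from 4 to 5 h were 1.77, 2.10, 1.83 and 2.21 for these genes in turn. For ALD5 and ACS1 the later vehicle ratios were 1.15 and 1.32, against 1.55 and 1.77 with Myr. The later step in vehicle was not tested.

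**Figure D4:**
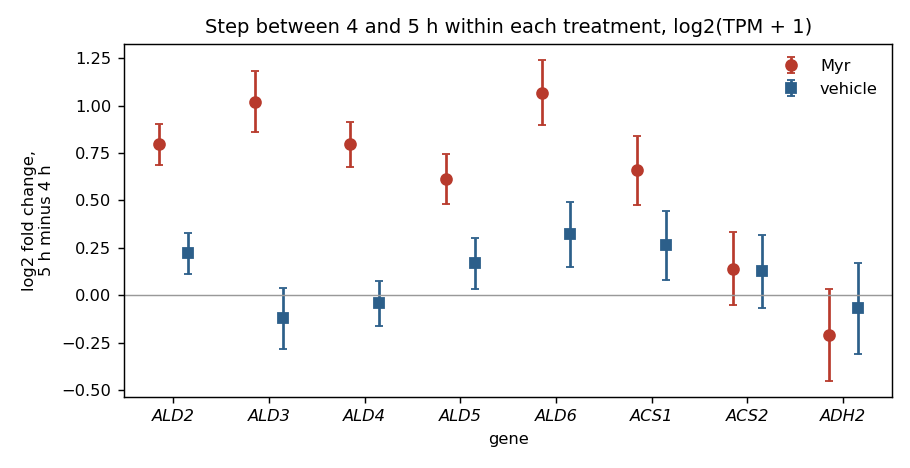
Change between 4 and 5 h on log2(TPM + 1) for each gene, with Myr (circles) and in vehicle (squares) and standard errors as bars. The Myr points of the 5 ALD genes lie at 0.61 to 1.07 and those of vehicle at -0.12 to 0.32.

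The saturated culture at 0 h held more of most of these mRNAs than cells at 1 h did. ACS1 fell the most: it had 2.99, 2.87 and 2.68 TPM at 1 h with Myr, against 170, 166 and 217 TPM at 0 h, 64.8 times as much by the means. In vehicle it had 2.59, 2.54 and 3.11 TPM at 1 h, against 133, 214 and 319 TPM at 0 h, 80.9 times as much. ACS1 made up 4.36% of the mRNA of both synthetases with Myr and 4.64% in vehicle at 1 h, against 40.9% with Myr and 43.2% in vehicle at 0 h. In this first hour 7 of the 8 genes were lower with Myr (background 55.6%) and 6 in vehicle (background 52.6%), and 1 was higher in each, ALD5 (background 27.2% with Myr and 29.3% in vehicle).

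ALD3 was 8.98 times as high at 0 h as at 1 h with Myr and 10.0 times in vehicle, ALD2 6.25 and 6.82 times, ACS2 4.26 and 5.18 times, ADH2 3.73 and 7.88 times and ALD4 2.63 and 4.06 times. ALD5 moved the other way, with 143, 146 and 122 TPM at 1 h against 55.6, 68.2 and 76.9 TPM at 0 h with Myr (1.03 ± 0.13, adjusted p = 1.2e-08), and 122, 121 and 121 TPM at 1 h against 61.6, 69.1 and 76.7 TPM at 0 h in vehicle (0.81 ± 0.13, adjusted p = 1.2e-06). ALD6 fell by 0.92 with Myr (adjusted p = 1.0e-05) and did not pass in vehicle (-0.21, adjusted p = 0.264), and under spike-in scaling it instead rose, by 0.77 with Myr (adjusted p = 0.00749) and 1.12 in vehicle (adjusted p = 1.9e-04). The fall of ALD4 with Myr also changed sign under that scaling (0.29, adjusted p = 0.19). The median gene was itself lower at 1 h than at 0 h, by 0.48 with Myr and 0.38 in vehicle, and higher under spike-in scaling, by 1.14 with Myr and 0.88 in vehicle.

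ALD6 fell further in the next hour. It was lower at 2 h than at 1 h by 1.67 ± 0.17 with Myr and 2.33 ± 0.17 in vehicle, and ALD4 was lower by 1.63 ± 0.12 with Myr and 1.50 ± 0.12 in vehicle. In that hour 4 genes were lower and 0 higher with Myr (background 20.2% and 26.6%) and 3 lower and 0 higher in vehicle (background 34.9% and 19.5%), ALD5 being lower in both and ALD3 called with Myr (-0.41, adjusted p = 0.0353), a call lost without any 1 of 5 libraries (Myr 1 h A or B, Myr 2 h A, B or C, highest adjusted p = 0.153). The difference between the treatments in this hour was not tested.

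At 0 h the treatments were not clearly apart, and the vehicle libraries varied widely. ADH2 had 106, 127 and 149 TPM with Myr, against 93.7, 353 and 309 TPM in vehicle, and ALD6 had 1903, 1934 and 2200 TPM with Myr, against 1293, 929 and 2390 TPM in vehicle. The libraries of all 8 genes overlapped at this hour. ADH2 was nevertheless called lower with Myr (-0.78 ± 0.24, adjusted p = 0.0312, background 3.63% lower), while 0 of 8 genes were called higher (background 8.26%). By limma, 2 genes had an unadjusted p under 0.05 on the higher side, ALD6 (0.50, adjusted p = 0.0534) and ALD3 (0.35, adjusted p = 0.156). The ADH2 call was lost without Myr 0 h A or B or vehicle 0 h B or D (highest adjusted p = 0.354). It was also lost under spike-in scaling. That scaling was set to 0 h of the same treatment, so it cannot check a difference between the treatments at 0 h.

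Set against 1 h, the treatments had parted by 6 h for 2 genes, both higher (background 8.84%, and 1.52% lower). ALD3 was higher at 6 h than at 1 h by 1.71 ± 0.16 with Myr and 0.63 ± 0.16 in vehicle, a difference of 1.08 ± 0.23 (adjusted p = 0.00117). ALD6 was lower at 6 h than at 1 h by 0.41 ± 0.17 with Myr and 1.22 ± 0.17 in vehicle, a difference of 0.82 ± 0.24 (adjusted p = 0.0235), lost without vehicle 1 h C, vehicle 6 h A, Myr 1 h C or Myr 6 h A or C (highest adjusted p = 0.0754). In this span 4 genes were higher with Myr (background 50.6%) and 4 in vehicle (background 43.3%), ALD2, ALD3, ACS1 and ACS2 in both, and 3 were lower with Myr (ALD5, ALD6 and ADH2, background 21.6%) and 4 in vehicle (the same 3 and ALD4, background 26.3%). The fall of ALD6 with Myr lost its call without Myr 1 h A or B or any Myr 6 h library (highest adjusted p = 0.12), and that of ALD5 in vehicle without any vehicle 1 h library or vehicle 6 h A (highest adjusted p = 0.136). For ACS2 the rise was nearly the same size, 1.00 ± 0.19 with Myr and 1.07 ± 0.19 in vehicle. Spike-in scaling ended the call of both differences.

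In the first hour the change of ALD4 also differed between treatments, by 0.60 ± 0.17 (adjusted p = 0.0278, 1 of 8 genes higher and 0 lower, against a background of 2.42% and 3.81%) as it fell by 1.38 with Myr and by 1.98 in vehicle. This call was lost without any 1 of 6 libraries (vehicle 0 h B or D, vehicle 1 h B, Myr 0 h A or B, Myr 1 h B, highest adjusted p = 0.0748) and under spike-in scaling (0.96, adjusted p = 0.0904).

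Summed over the 5 ALD genes, mRNA was 1303 ± 117 TPM with Myr and 392 ± 27.9 TPM in vehicle at 5 h (SD, n = 3 each), a ratio of 3.32, against ratios of 2.35, 1.99 and 1.45 at 3, 4 and 6 h. ALD6 made up 80.7% of this sum with Myr and 71.8% in vehicle at 5 h, and ALD5 made up 13.0% with Myr and 21.6% in vehicle. Over all groups ALD6 held between 67.4% and 86.9%. ALD5 was the second most abundant at 1 to 6 h in both treatments, and ALD4 at 0 h.

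**Figure D5:**
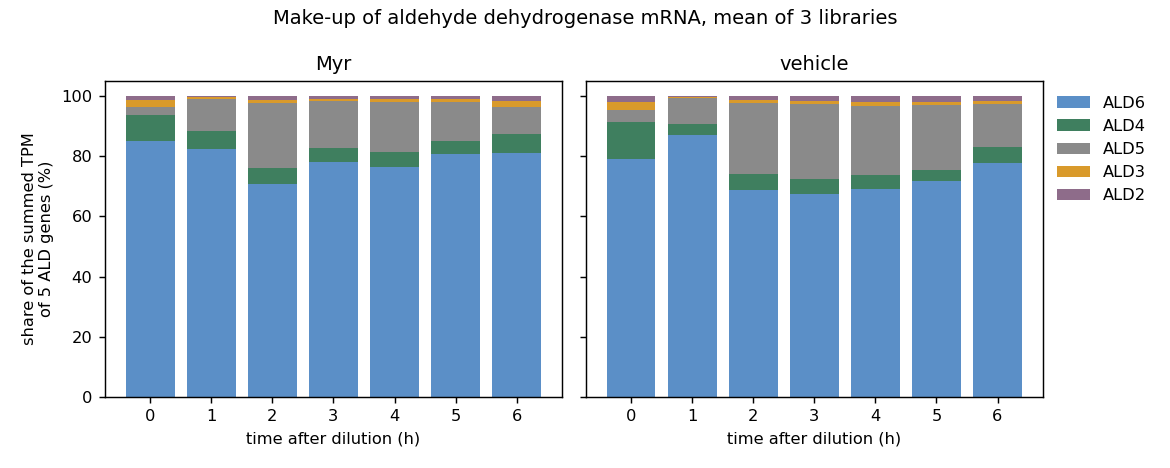
Mean share of each gene in the summed TPM of the 5 ALD genes (stacked to 100%) by hour, Myr left and vehicle right. ALD6 holds 67.4% to 86.9%, and the ALD5 share at 3 to 6 h is smaller with Myr, at 8.85% to 16.8%, than in vehicle, at 14.3% to 24.7%.

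In the order of the 14 group means, the 0 h groups came first for every gene but ALD5, and the neighbours in that order often overlapped. For ALD6 the order was Myr 0 h, vehicle 0 h, vehicle 1 h, Myr 1 h, Myr 5 h, Myr 6 h, Myr 3 h, vehicle 6 h, Myr 4 h, Myr 2 h, vehicle 5 h, vehicle 2 h, vehicle 4 h and vehicle 3 h, with 6 of the 13 neighbouring pairs apart and 7 overlapping. The Myr 5 h mean of 1051 TPM overlapped that of Myr 1 h, 1063 TPM. For ALD4, likewise 6 of 13 pairs were apart, and vehicle 3, 4 and 5 h were last at 15.7, 14.9 and 14.4 TPM and overlapped. Of the other genes, ALD2 and ALD3 had 4 pairs apart, ALD5 had 3, and ACS1, ACS2 and ADH2 had 2 each.

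ALD4 and ALD6 had the most alike courses during growth, with a Pearson r of 0.96 over the 12 group means of 1 to 6 h on log2(TPM + 1), next to 0.95 for ALD2 with ACS1 and 0.89 for ALD2 with ALD3 or ACS2. ADH2 ran against ACS2 (r = -0.73). Group means share the scaling of their libraries, and these values are descriptions. Across all genes tested and all 14 groups, the genes most like each member were SSY1, TFA2 and RAD6 for ALD6 (r = 0.97, 0.97 and 0.96), PEX7, YAP3 and TFA2 for ALD4 (0.98 each), ENA5, BAT1 and RAD23 for ALD5 (0.88, 0.87 and 0.86), GAD1, TMA17 and CTT1 for ALD3 (0.99 each) and UTR1, YME2 and VHS3 for ALD2 (0.99 each). They were YNL195C, CAT2 and UIP4 for ACS1 (0.997, 0.996 and 0.996), GIS1, RUP1 and YHR112C for ACS2 (0.99 each) and CTA1, PEX21 and SIP4 for ADH2 (0.99, 0.98 and 0.98). The 14 groups include 0 h, where every member but ALD5 had its highest means, and r can depend on it. For example, r of ACS1 with ADH2 was 0.90 over 14 groups and -0.62 over the 12 of 1 to 6 h.

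Related enzymes outside the 8 were counted at 5 h, where 52.2% of all genes were called higher and 3.99% lower. After median centring these shares were 23.2% higher and 21.3% lower. Among other aldehyde dehydrogenases, 4 of 4 were higher: HFD1, the fatty aldehyde dehydrogenase (45.4 ± 2.37 TPM with Myr and 20.2 ± 2.61 TPM in vehicle, difference 1.14), UGA2 of 4-aminobutyrate breakdown (0.99), PUT2 of proline breakdown (0.92) and MSC7 (0.25, not called after median centring). The pyruvate decarboxylases and other alcohol dehydrogenases had 3 of 8 higher, ADH5 (0.73), PDC5 (0.57) and SFA1 (0.54), and neither PDC1 (0.32, adjusted p = 0.0546) nor ADH1 (0.28, adjusted p = 0.0635) past the test. Of the genes that carry acetate or acetyl units, 5 of 9 were higher, led by ATO2 (17.4 ± 2.00 TPM with Myr and 7.70 ± 1.15 TPM in vehicle, difference 1.08), JEN1 (0.69), ADY2 (0.64) and ACH1 (0.42), and after median centring ATO2 was the 1 still called higher and 2 were lower, ATO3 and YAT1. The glyoxylate cycle and gluconeogenesis list had 4 of 11 higher: CIT1 (0.71), MDH2 (0.67), CIT2 (0.48) and MDH3 (0.23). ICL1, MLS1, PCK1 and FBP1 were among those not called. After median centring 2 of the list were higher and 1, ACO1, lower. The median member of these lists differed by 0.95, 0.40, 0.38 and 0.27 in the order given, against 0.31 for all genes.

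The route from polyamines through beta-alanine to coenzyme A, in which ALD2 and ALD3 serve, had 6 of 8 genes higher (background 52.2%). Among them were FMS1, the polyamine oxidase that makes 3-aminopropanal (19.9 ± 1.69 TPM with Myr and 11.0 ± 0.719 TPM in vehicle, difference 0.80), and the pantothenate genes PAN5 (0.61), PAN6 (0.42) and CAB1 (0.37). After median centring 2 were higher, FMS1 and PAN5, and 1 lower, SPE3 (background 23.2% and 21.3%). Against the same backgrounds, other sources of NADPH had 3 of 6 higher, GND2 (1.14), ZWF1 (0.84) and IDP1 (0.34), and after median centring 2 higher and 1, GND1, lower. Users of cytosolic acetyl-CoA had 3 of 4 higher, ERG10 (0.55), FAS2 (0.39) and FAS1 (0.33). After median centring ERG10 was still called higher, and FAS2 and FAS1 were not called. The list medians were 0.35, 0.30 and 0.36, close to the 0.31 of all genes.

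Regulators of ethanol and acetate genes had 6 of 9 higher (background 52.2%), with ADR1 (9.22 ± 1.81 TPM with Myr and 4.91 ± 0.717 TPM in vehicle, difference 0.78), MSN2 (0.59), CAT8 (0.57) and SNF1 (0.56) at the top and a list median of 0.55. After median centring 5 were higher and 1, MSN4, lower (background 23.2% and 21.3%). The Msn2 and Msn4 stress targets had 10 of 10 higher at 5 h (background 52.2%) and 9 of 10 at 6 h (background 19.6%), HOR7 by 3.66, HSP12 by 2.81, DDR2 by 2.40 and GRE3 by 1.78 at 5 h. Their median difference was 1.64 at 5 h, beside 1.90 for ALD6, 1.89 for ALD4 and 1.40 for ALD3. The other members, ALD5 and ALD2 among them, differed by less, and a link between the members and the stress targets was not tested. Between 0 and 1 h, 10 of these 10 were lower in both treatments, as were 11 of 11 glyoxylate and gluconeogenesis genes, against 55.6% of all genes with Myr and 52.6% in vehicle. For the glyoxylate and gluconeogenesis list the median change was -5.34 with Myr and -5.84 in vehicle, next to -5.58 and -5.81 for ACS1. At 5 h the cell type markers moved as well (background 52.2% higher and 3.99% lower): 2 of 5 a-cell genes were lower, MFA2 by 1.15 and STE2 by 0.35, and BAR1 was higher by 0.32, while 2 of 3 alpha-cell genes were higher, STE3 by 0.93 and MF(ALPHA)2 by 0.42. After median centring MFA2, STE2 and also MFA1 (-0.39) were called lower. STE3 (0.65) was then still higher, and BAR1 (-0.01) and MF(ALPHA)2 (0.11) were not called (background 23.2% higher and 21.3% lower). The part of these markers in the results above was not tested.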

How the data were processed

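RNA-seq was done on 42 libraries, 3 in each of 14 groups of treatment and hour. The authors made TruSeq stranded libraries from mRNA, trimmed reads with Trimmomatic 0.36, quantified transcripts of R64 and of 92 spike-in RNAs with Salmon 0.8.2, and deposited TPM without pooling replicates. Mix 1 of the spike-ins went to vehicle and mix 2 to Myr samples, so spike-in scaling was set to 0 h of the same treatment. Treatment and hour came from column labels, which give a letter but no replicate number, and 0 columns of samples were left unused. Of 6106 gene identifiers, 3 were not matched to a name. TPM keep no depth, so precision was taken from the libraries.

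In R 4.3.3, limma 3.58.1 was fitted to log2(TPM + 1) with group means, empirical Bayes moderation and a variance trend, keeping the 5983 genes that averaged 1 TPM or more in the 36 libraries of 1 to 6 h. Hours were compared in that fit, and 0 h and changes between hours in a fit of 42 libraries. Calls used a Benjamini-Hochberg adjusted p under 0.05 over all genes in a contrast, and the terms for time, drug and interaction p of 0.01 or less. Overlap means that the ranges of the 3 libraries meet. The fit was tested on simulated data. Sequences came from the R64 genome (RefSeq), with Python 3.11.15 and Biopython 1.88.

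The members and the gene lists were chosen with earlier results of these data known. Named were all 8 genes, up to 4 called genes of each list with the largest change at 5 h, and the 3 genes most like each member. PDC1, ADH1, ATO3, YAT1, ICL1, MLS1, PCK1, FBP1, ACO1, SPE3, GND1, MSN4 and the cell type markers were named after their values were seen. Alternatives were median centring (each library shifted so that its median log2 ratio to the mean of libraries is 0), scaling by spike-ins, pseudocounts of 0.1 and 10, filters at 0 and 10 TPM, a fit without the variance trend, the column letter as a random effect, leaving out RPL41A-rich libraries or each library in turn, each hour on its own, an adjusted p for the terms, and a two-way test on TPM.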

Additional observations from a re-analysis of the deposited data

Results flagged for a closer look

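Each result here was set apart because a change over the same hours differed between Myr and vehicle by its own test (limma, adjusted p under 0.05), on log2(TPM + 1) with the change in vehicle subtracted from that with Myr. Between 4 and 5 h the differences were 1.14 for ALD3, 0.84 for ALD4, 0.75 for ALD6 and 0.58 for ALD2. Between 1 and 6 h they were 1.08 for ALD3 and 0.82 for ALD6. Between 0 and 1 h the difference was 0.60 for ALD4. All 7 were positive and none passed under spike-in scaling.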

How the results depend on the processing

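No paired analysis was possible because the columns carry no replicate number, which alone is said to mark a flask. Columns do carry a letter that recurs over the hours. With it as a random effect within a treatment (estimated correlation 0.18), 149 of the gene calls were the same and 3 were gained (ADH2 at 2 h, ALD4 at 6 h against 1 h with Myr, and the difference of ALD6 between 0 and 1 h), and 1 gene was called lower in the difference of the changes between 0 and 1 h, against 0.

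A sign change was counted where at least 1 of both values passed the test. It occurred under spike-in scaling alone: ALD3 (0.75) and ACS1 (0.64) at 2 h and ACS1 at 4 h (0.52), Myr against vehicle, and at 1 h against 0 h ALD4 (0.29) and ALD6 (0.77) with Myr and ALD6 in vehicle (1.12). That scaling raised the median gene with Myr by 0.37, 1.01, 1.10, 0.74, 0.80 and 0.49 at 1 to 6 h. Genes higher with Myr were then 2 at 1 h and 8 at 2, 3 and 4 h, and 0 were lower at 0 h, the hour to which this scaling was set. Shares over all genes are not given beside the counts in this section, and such shares change with the processing. At 3 h, for example, 39.4% of all genes were higher on TPM as deposited and 4.90% after median centring. No count in this section is therefore read as particular to these genes, least of all the spike-in counts, with the median gene raised this much. Under spike-in scaling, 2 were higher in each treatment and 3 lower with Myr at 1 h against 0 h. 2 were lower with Myr at 2 h against 1 h, 1 was higher at 5 h against 4 h with Myr, and 2 at 6 h against 1 h in vehicle. The differences of changes left 0 genes.

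Median centring gave 2 higher and 1 lower at 1 h, 1 higher at 2 h, 3 at 3 h, 1 lower at 6 h and 1 higher at 0 h, and for differences of changes 2 higher and 1 lower between 0 and 1 h and 1 lower between 1 and 6 h. It also gave 5 higher at 5 h, 5 for the mean of 1 to 6 h and 4 with an interaction. For the difference between 4 and 5 h it left 3 higher, and 4 were lower with Myr at 6 h against 1 h. Without the RPL41A-rich libraries 2, 6 and 2 genes were higher at 1, 2 and 3 h and 1 at 0 h, and 1 was lower in the difference between 0 and 1 h. Each hour on its own gave 6 higher at 2 h, 3 at 3 h and 0 lower at 0 h, and a pseudocount of 10 gave 1 higher at 0 h. A mean of at least 10 TPM removes ALD2, ALD3 and ACS1, which left 3 higher at 3, 5 and 6 h and at 5 h against 4 h with Myr, 1 at 0 h, 4 (Myr) and 3 (vehicle) lower at 1 h against 0 h, 1 higher in each treatment at 6 h against 1 h, 2 and 1 in the differences between 4 and 5 h and between 1 and 6 h, 5 with a time term and 3 with an interaction.

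Leaving out each library gave 1 to 2 higher at 1 h, 1 to 6 at 2 h, 3 to 7 at 3 h, 2 to 5 at 4 h and 0 to 1 at 0 h, and 0 to 2 lower at 0 h. For differences of changes it gave 0 to 2 higher and 0 to 1 lower between 0 and 1 h, 2 to 5 higher between 4 and 5 h and 1 to 2 between 1 and 6 h. At 5 h the call of ACS1 and at 6 h that of ALD2 were also lost without single libraries, as given above. The calls of ALD4 and ALD6 at 3 to 6 h, of ALD3 at 5 and 6 h and of ALD2 and ALD5 at 5 h held in every alternative that kept the gene, leaving out each library included. At 3 h the fit without the RPL41A-rich libraries kept 1 vehicle library, so its spread there was taken from other groups. Depth is unknown, so counting error of ALD2, ALD3 and ACS1 at a few TPM could not be given.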
